A study of Mus musculus with 12 samples.

Results

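Long intergenic noncoding RNAs (lincRNAs) are transcripts without a known protein product that lie between coding genes. Here they were described in the retinas of C57BL/6 wildtype mice aged 8 to 12 weeks, sequenced after laser photocoagulation. Members were selected on annotation and level: they are the genes annotated as lincRNA in the deposited tables with an average of 3 or more across all 12 libraries, lasered ones included, in the deposited signal, a value per gene scaled for depth and exon length. The cut left 301 members of 5643 lincRNA genes (5.33%), among 54367 genes of all kinds. The right eye of each mouse was burned at 4 positions with a 532 nm laser (75 µm spots, 0.1 s), and the left eye was the untreated control. Retinas were taken on day 3 or day 7, with 3 libraries in each of 4 groups: lasered and control on day 3, lasered and control on day 7. No transgene or deletion is named for any group.

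LincRNAs are transcribed and, in part, spliced and polyadenylated like messenger RNAs. Some act in the nucleus near their site of synthesis or in nuclear bodies, some are precursors that release microRNAs or small nucleolar RNAs (snoRNAs), and some are only by-products of a nearby promoter. In the retina, Malat1, Meg3, Miat and the precursors of the neuronal microRNA miR-124 are long known, whereas most other members carry only a predicted or clone name. Of the 301 members, 164 had a predicted "Gm" name, 91 a "Rik" name, 19 a clone name and 27 another name.

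The members were low in level and short. Their mean signal ran from 3.00 to 951, with a median of 6.49, beside 17.7 for the 10758 protein-coding genes past the same cut, and both are per length. Only 107 members reached a mean of 10 and 10 reached 100. For the 292 members with the same start and end in the reference annotation (GENCODE M21), the median exon length was 1318.5 bases and the median of the largest exon number was 2, beside 4244 bases and 9 for the coding genes. A single exon was annotated for 56. The values nearest to the cut were 3.003 for 4932422M17Rik, 3.01 for D630033O11Rik and 3.02 for Gm26534 inside it, and 2.98 for Gm2233, 2.95 for Gm26734 and 2.95 for Gm20063 outside it. Because the cut used lasered libraries too, 20 members that averaged under 3 over the 6 control libraries were members through the lasered ones. Likewise, 21 that averaged under 3 over the 6 lasered libraries were members through the controls, which favours their being lower after laser.

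The 10 members with the highest mean were Gm10076, Mir124a-1hg, A930003A15Rik, Gm28875, Mir124-2hg, Gm47543, A930006I01Rik, Gm14268, Gm15706 and A330094K24Rik. Gm10076 (chromosome 14, 105681828 to 105682211) led with a mean of 951, but 69.9% of its 50-base words also occur in another gene, most of them in Rpl41, a ribosomal protein gene with a mean of 804. Its reads and those of Rpl41 could therefore have been split or shared by the counting. Mir124a-1hg, also known as Rncr3, is a precursor of miR-124 and had a mean of 423. In the day 3 controls it had 74.4, 93.2 and 103, and in the lasered libraries 113, 124 and 135, a difference of 0.46 on the log2 scale (adjusted p = 0.153). All lasered values lay above all control values there, while on day 7 the groups overlapped.

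Sequence shared with other genes limited more than this member. A search of the members' longest transcripts for 50-base words found in transcripts of another gene, on either strand, gave 162 members with none, 139 with at least 1, and 31 with over 50% of their words shared. Counts of those 31 are uncertain. In addition, 82 members shared exon bases with another annotated gene, 64 of them on the opposite strand. The library kit kept strand, but no source used here says whether the counting did, so reads of such pairs cannot be told apart.

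Depth differed by day. Recovered from the step between low values, the reads on genes numbered 8738245 to 11879991 in day 3 libraries, and 22683090 to 29487401 in those of day 7. The members took 0.645% to 0.814% of the signal on day 3 and 0.515% to 0.608% on day 7. Their coefficient of variation among the controls had a median of 19.1% on day 3 and 25.3% on day 7. In 46 members on day 3 and 57 on day 7 every control library had under 20 reads, so small differences in them were not detectable at this depth. No label ties a replicate number to a mouse, and p-values measure the spread between these libraries. Lasered replicate 1 of day 3 stood apart: the summed level of 8 cone markers was 408 there and 1794 and 1797 in the other lasered libraries (controls 2582 to 2713), and 8 reactive glia markers summed to 5770 there and to 293 and 504 (controls 30.4 to 43.5). Lens markers summed to 420.5 in lasered replicate 2 of day 3 and to 1179 in lasered replicate 1 of day 7, beside at most 7.20 in the other libraries. The retina label held, since 10 rod markers summed to at least 11432 in every library.

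The comparison on day 3 asked which lincRNAs differed between lasered and control retinas. Of 301 members, 287 averaged 1 or more in the 6 day 3 libraries and were tested with limma on log2(value + 1), a scale that understates changes of low genes. At an adjusted p under 0.05, 1 member rose (CT025671.4) and 0 fell; among all genes 0.143% rose and 0.00596% fell. At an unadjusted p under 0.05, limma gave 31 members higher (10.8%, beside 20.7% of all genes) and 32 lower (11.1%, beside 2.29%). The lower count moved with single libraries, and the share of all genes moved with it. It was 9 of 287 without control replicate 3 (0.817% of all genes) and 54 of 287 without lasered replicate 3 (3.2%). With median-of-ratios rescaling it was 73 (8.54%), with 18 higher (12.2%). A negative difference was found in 179 of 287 members (62.4%), beside 31.8% of all genes and 25.1% of 10019 coding genes past the same cut. In 446 other long noncoding genes past that cut the share was 64.8%, so the downward shift was not particular to the members. The share of signal from mitochondrial genes moved with the groups, 15.7% to 19% in lasered libraries (lowest in replicate 1) beside 20.9% to 22.7% in controls; its part in the members' differences was not tested. The median difference was -0.14 for the members, 0.16 for all genes tested, 0.20 for the coding genes and -0.14 for 446 other long noncoding genes past the same cut.

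**Figure D1:**
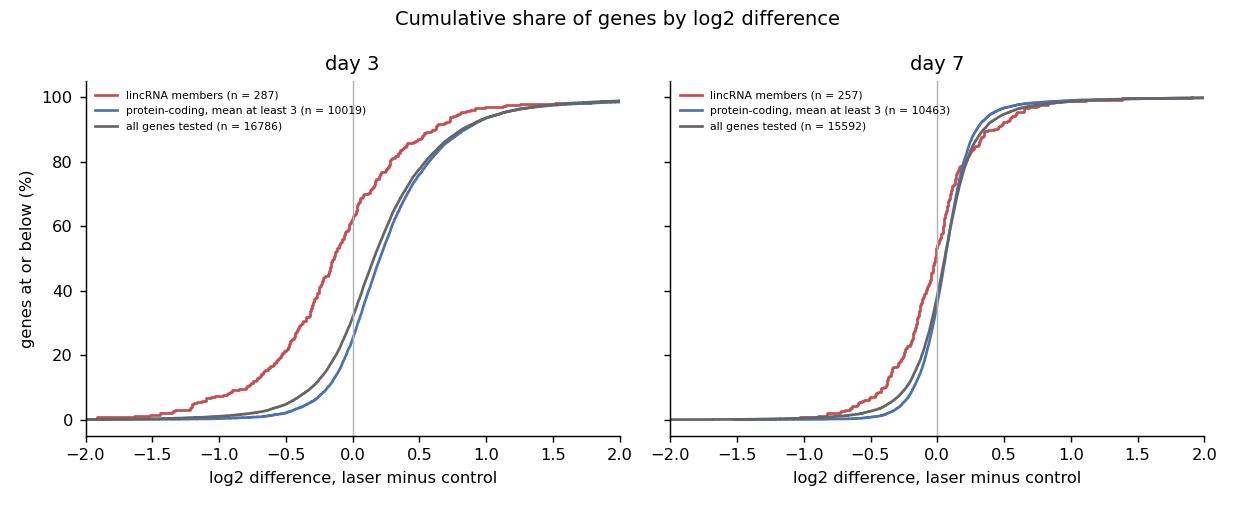
Cumulative share of genes (percent, vertical axis) by log2 difference between lasered and control retinas (horizontal axis) on day 3 and day 7, for the members, for protein-coding genes with a mean of at least 3 and for all genes tested. On day 3 the members' curve lies left of the others, with 62.4% of members below 0 beside 31.8% of all genes. On day 7 the shares are 53.7% and 38.5%. Other long noncoding genes with a mean of at least 3, not drawn, had 64.8% below 0 on day 3 and 55.7% on day 7.

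Complete separation of the groups was also more often downward in the members than in all genes. It was not counted for the other long noncoding genes. The 3 lasered libraries were all below the 3 controls in 47 members (16.4%, beside 3.82% of all genes) and all above them in 37 (12.9%, beside 27.7%). Of these 37, 10 averaged under 3 over the controls and were members through lasered libraries. How many of the 47 were members through the controls was not counted. Among the 268 tested members with a control mean of at least 3, 27 were apart upward and 47 downward. Such a cut on the controls in turn favours members that are high in them. In 42 of the 47, lasered replicate 1 had the lowest value. Its members had a median of -0.37 from the control mean, beside -0.05 in lasered replicate 2 and 0.0062 in lasered replicate 3, and 62 members lay more than 1 below the control mean in it, beside 5 in each of the others. Without lasered replicate 1 the members' median was -0.005 (all genes 0.13), 50.9% of members were negative (all genes 30.1%), and the groups, now 2 libraries against 3 and so more easily apart, were separated downward in 53 members (18.5%, beside 4.90%) and upward in 48 (16.7%, beside 30.8%). Cone and glial marker sums moved in the same library as given above, and the rod markers summed to 11432 in it, beside 28019 and 21586 in the other lasered libraries and 24711 to 31689 in controls; their part in the members' differences was not tested, and fewer cells of a type and less RNA per cell cannot be told apart in these bulk samples. Rescaling the libraries by median of ratios moved the median of all genes from 0.16 to -0.01 and that of the members to -0.33, with 73.9% of members and 51.6% of all genes negative.

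**Figure D2:**
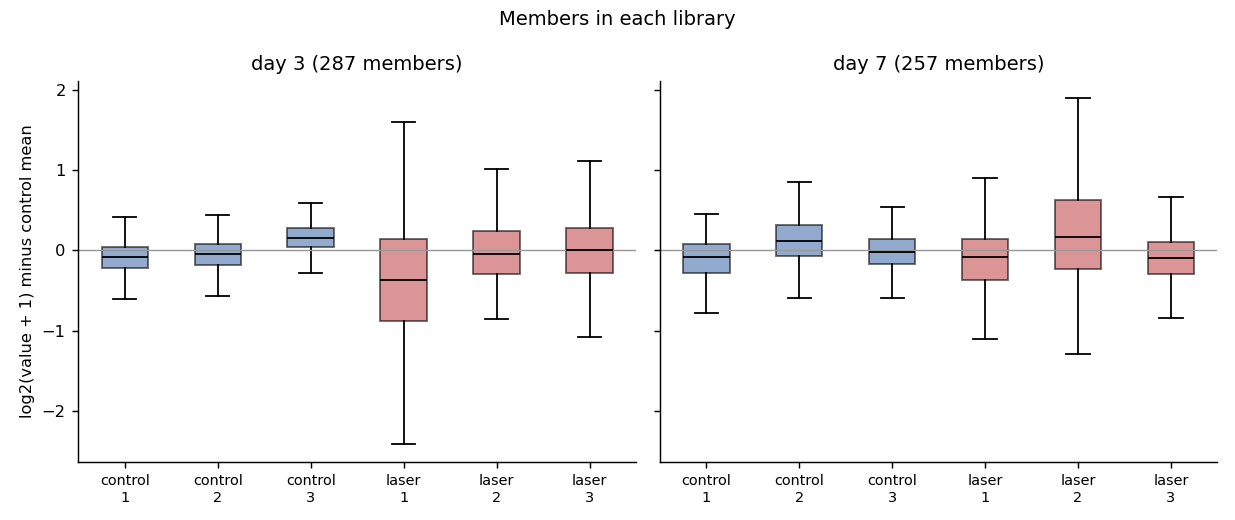
Members in each library: log2(value + 1) minus the mean of the controls of the same day (vertical axis), for 287 members on day 3 and 257 on day 7; boxes are quartiles, the line is the median and whiskers reach the last point within 1.5 box lengths. Lasered replicate 1 of day 3 has the lowest median (-0.37) and a wide box, and on day 7 the libraries numbered 2 have the highest medians of their groups (0.17 lasered, 0.11 control).

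CT025671.4 (ENSMUSG00000117296) was the member past the adjusted threshold on both days. It is a gene of 2 exons and 3450 exon bases on the plus strand of chr17:66193352-66199820 (mm10), none of its 50-base words occurs in another gene's transcripts, and its nearest coding gene, Ddx11, lies 41178 bases away. The first 150 bases of its transcript and its last 60, in which capitals mark a polyadenylation hexamer, are given because the poly(A) signal and the transcript end bear on how such an RNA enters a poly(A) library:

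CT025671.4 start: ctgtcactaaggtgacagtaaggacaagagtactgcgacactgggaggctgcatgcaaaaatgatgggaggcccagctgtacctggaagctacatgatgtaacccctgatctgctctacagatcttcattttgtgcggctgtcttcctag

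CT025671.4 end: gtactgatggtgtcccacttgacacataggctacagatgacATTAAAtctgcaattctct

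As the plot of the 10 members by library shows, on day 3 CT025671.4 had a signal of 10.1, 5.78 and 11.3 in the lasered libraries and 0.132, 0.306 and 0.419 in the controls, where it rested on 3 to 7 reads. On day 7 it had 4.48, 5.11 and 4.30 in the lasered libraries and 0.589, 0.649 and 0.289 in the controls. The groups were far apart on both days, and each lasered library, not only replicate 1, was high. The log2 difference was 2.93 (SE 0.26, adjusted p = 0.0278) on day 3 and 1.91 (SE 0.23, adjusted p = 0.0372) on day 7, and the ratio of the group means was 31.8 and 9.10. It was also a member through its lasered libraries, since its control means were 0.286 and 0.509. Markers of reactive glia and microglia were high in the same libraries: on day 3 the glia sums were those given above and the microglia markers summed to 155 to 254 (controls 44.0 to 52.8), and on day 7 they summed to 781 to 820 (controls 172 to 226) and 406 to 490 (controls 128 to 146); their part in the CT025671.4 values was not tested. When 1 library was left out the difference was 2.76 to 3.19 (day 3) or 1.80 to 1.97 (day 7). It lost the threshold when any control library was left out, on either day (adjusted p = 0.136 to 0.292), without lasered replicate 3 of day 3 (0.083) and without lasered replicates 1 or 3 of day 7 (0.147 and 0.251). It was 2.93 with an adjusted p of 0.150 with a replicate block on day 3. The member nearest to it, CT025671.1, starts at 66236369 on the opposite strand; it had 7.61, 9.52 and 10.8 beside 4.08, 5.94 and 7.37 on day 3, apart, and overlapping groups on day 7.

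Beside CT025671.4, 4 more members were higher in all lasered libraries on both days: Gm48236, 2810032G03Rik, Snhg18 and Gm49207. That makes 5 of 243 members tested on both days, beside 4.64% of all genes. Of these 5, CT025671.4, Gm48236 and 2810032G03Rik averaged 0.397, 2.7 and 2.1 over the 6 controls, so they were members only through the lasered libraries in which they were high, and nothing is read from the count. The grouping by both days was made after the values were seen, and of these genes only CT025671.4, Gm48236 and the snoRNA host Snhg18 were named by the rule as well.

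Gm48236 (chr12:35534421-35590446, plus strand) starts inside Ahr, which encodes the aryl hydrocarbon receptor, on the opposite strand, and shares 127 exon bases with it. Its signal on day 3 was 32.2, 16.5 and 4.31 in lasered libraries and 3.34, 2.62 and 3.14 in controls, and on day 7 it was 7.10, 9.17 and 6.64 beside 1.81, 3.51 and 1.79. The groups were apart on both days, with a spread of 14.0 (SD, n = 3) among the lasered libraries of day 3. The log2 difference was 1.85 (adjusted p = 0.136) on day 3 and 1.38 (adjusted p = 0.247) on day 7, where the fit with the replicate number as a block gave an adjusted p of 0.0465 and 2 members called in all (0.334% of all genes rose in that fit). Ahr itself went from 2.79 to 6.83 on day 3 and from 4.31 to 6.94 on day 7 in group means (log2 0.99 and 0.50, adjusted p = 0.103 and 1).

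2810032G03Rik and Snhg18 start head to head with a coding gene. Snhg18, a snoRNA host gene, starts 148 bases from Sema5a, an axon guidance semaphorin. It had 35.6, 21.8 and 28.4 in lasered and 15.1, 17.1 and 17.4 in control libraries on day 3, and 27.2, 33.4 and 28.6 beside 21, 16.0 and 19.1 on day 7. Its values were about equally high in lasered libraries of both days, with differences of 0.73 (SE 0.19, adjusted p = 0.106) and 0.65 (SE 0.17, adjusted p = 0.537). 2810032G03Rik starts 188 bases from Klhl29, a kelch-like gene, by gene coordinates. It had 6.81, 2.39 and 2.40 beside 0.478, 0.674 and 0.560 on day 3 (log2 1.51, adjusted p = 0.0938), and 7.18, 6.2 and 5.83 beside 4.04, 4.19 and 2.69 on day 7 (0.69, adjusted p = 0.962). Both coding partners were higher in the same direction on both days, Sema5a by 0.49 and 0.42 and Klhl29 by 0.89 and 0.60 on the log2 scale, without passing the test. Over all head-to-head pairs within 5 kb, however, the sign was the same in only 30 of 56 on day 3 and 30 of 58 on day 7. Gm49207, a gene of 279 bases, had 10.1 to 12.3 in lasered and 5.18 to 9.25 in control libraries on day 3, and 77.8% of its words occur in other genes, most in the chaperone activator gene Ahsa1.

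Promoter windows of these head-to-head members are printed because such starts can share a promoter, together with that of 1700116B05Rik, a member that was lower on both days. The RefSeq table (GRCm38.p6), with 250 bases before and 50 after each start, held windows for 123 members and none for CT025671.4, Gm48236, Gm49207, Gm11754, Gm4065 or Rncr4. Capitals mark matches, on either strand, to STAT (TTCNNNGAA), the interferon response core (ISRE core), AP-1 (TGANTCA), CRE (TGACGTCA), CRX/OTX (TAATCC), the CCAAT box (CCAAT), the TATA box (TATAAA) and the SP1 GC box (GGGCGG).

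Snhg18, chr15:32244613-32244912, minus strand: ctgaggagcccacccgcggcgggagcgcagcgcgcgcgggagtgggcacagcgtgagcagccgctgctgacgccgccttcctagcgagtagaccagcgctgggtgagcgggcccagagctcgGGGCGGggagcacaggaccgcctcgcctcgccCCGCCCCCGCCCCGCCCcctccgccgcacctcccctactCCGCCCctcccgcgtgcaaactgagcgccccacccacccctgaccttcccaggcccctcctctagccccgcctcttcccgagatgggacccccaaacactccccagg

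2810032G03Rik, chr12:5375470-5375769, plus strand: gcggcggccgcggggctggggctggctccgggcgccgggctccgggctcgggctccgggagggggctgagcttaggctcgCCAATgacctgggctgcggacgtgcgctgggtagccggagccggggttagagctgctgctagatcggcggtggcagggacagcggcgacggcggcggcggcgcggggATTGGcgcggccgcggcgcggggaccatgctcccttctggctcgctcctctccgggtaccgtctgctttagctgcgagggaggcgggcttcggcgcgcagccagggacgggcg

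1700116B05Rik, chr16:50783159-50783458, plus strand: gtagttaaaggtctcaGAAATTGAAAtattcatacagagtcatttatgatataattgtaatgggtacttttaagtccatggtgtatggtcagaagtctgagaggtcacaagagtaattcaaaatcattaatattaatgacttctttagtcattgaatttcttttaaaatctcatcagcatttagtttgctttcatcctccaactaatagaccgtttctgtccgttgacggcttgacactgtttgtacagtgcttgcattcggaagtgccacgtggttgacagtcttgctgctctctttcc

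The share of G and C was 75.3% in the window of Snhg18, 76.7% in that of 2810032G03Rik and 36.7% in that of 1700116B05Rik. The table's window for B230220B15Rik, which lies 2816 bases downstream of the gene start in the deposited table and is not printed, had 42.3% and 1 match to the CCAAT box. Snhg18 held 5 matches to the SP1 GC box, a motif in 35.7% of all 32851 windows, and 2810032G03Rik held 2 to the CCAAT box, found in 37.4%. The window of 1700116B05Rik held 1 match to the interferon response core, found in 3.44%. Over all 148 windows of members the shares were 34.5% for the GC box, 41.9% for the CCAAT box, 12.8% for TATA (13.6% of all windows), 6.76% for STAT (8.30%), 7.43% for AP-1 (7.81%), 2.7% for CRE (1.79%), 3.38% for the interferon response core, 70.9% for the E-box (CANNTG, 72.3%) and 11.5% for CRX/OTX (7.06%). Motifs can overlap and a match is a description of letters only.

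**Figure D3:**
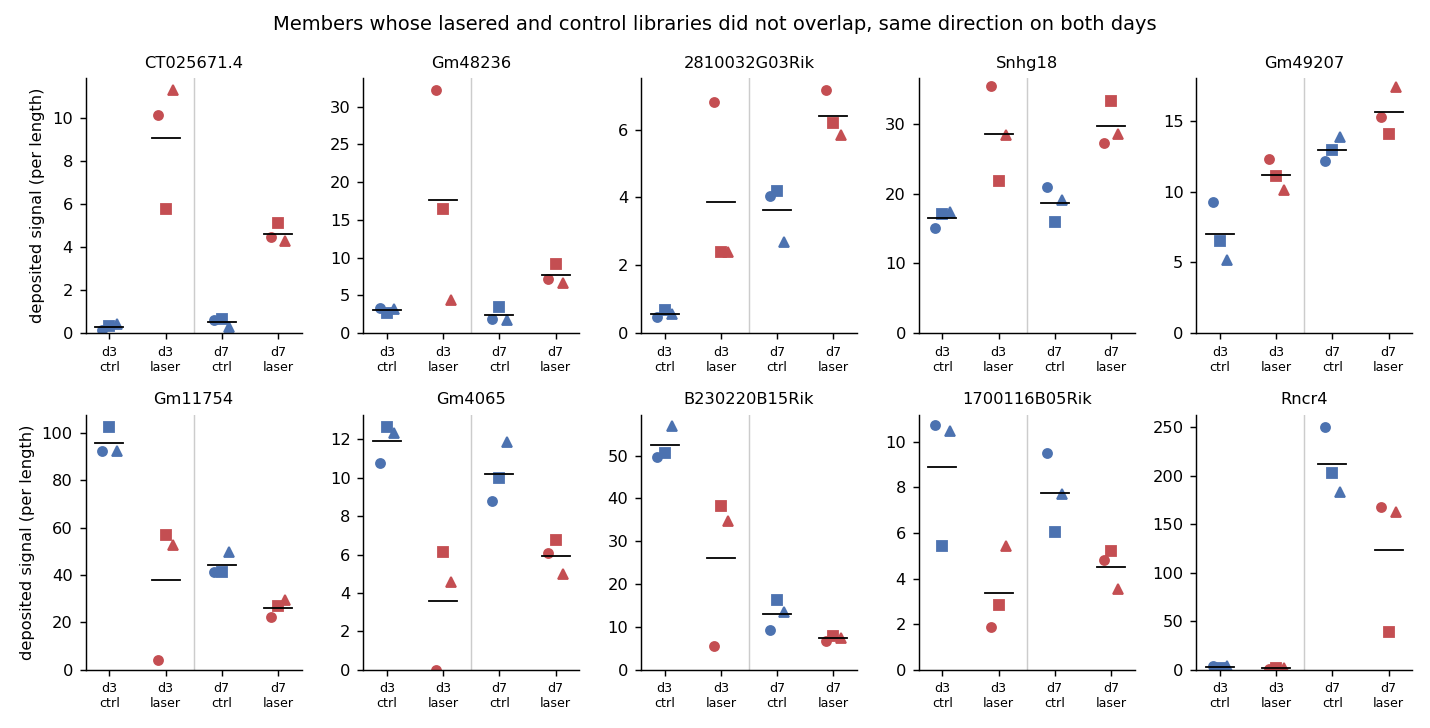
Deposited signal (per length, vertical axis, from 0) in each of the 12 libraries for the 10 members whose lasered (red) and control (blue) libraries did not overlap and differed in the same direction on day 3 and day 7; circles, squares and triangles are replicates 1, 2 and 3 and black lines are group means. CT025671.4 sits at or below 0.649 in all controls and at or above 4.30 in all lasered libraries, while Gm4065 is at 0 in lasered replicate 1 of day 3.

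In 5 members all lasered libraries were below all controls on both days: Gm11754, Gm4065, B230220B15Rik, 1700116B05Rik and Rncr4. This is 5 of 243, beside 0.294% of all genes tested on both days, and 0 of them passed the adjusted threshold by limma on either day. Gm11754 (chromosome 11, 119106328 to 119111425, minus strand) has 3 exons, and none of its words occurs in another gene. On day 3 it had 4.08, 57.1 and 52.9 in lasered and 92.6, 103 and 92.6 in control libraries, and on day 7 it had 22.3, 26.9 and 29.6 beside 41.4, 41.5 and 49.5. Lasered replicate 1 of day 3 was far below the other lasered libraries, which were themselves below every control. The log2 difference was -1.95 (SE 0.87, adjusted p = 0.234) on day 3, -0.79 (adjusted p = 0.0389) without that replicate, and -0.73 (SE 0.16, adjusted p = 0.346) on day 7.

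Gm4065 (chromosome 10, 118803719 to 118805290, minus strand) also shares no word with another gene. It had 0, 6.14 and 4.58 beside 10.8, 12.6 and 12.4 on day 3, and 6.09, 6.74 and 5.01 beside 8.79, 9.97 and 11.9 on day 7. The difference was -1.92 (adjusted p = 0.158) on day 3, -1.03 (adjusted p = 0.0419) without lasered replicate 1, and -0.69 (adjusted p = 0.777) on day 7. B230220B15Rik had 5.62, 38.2 and 34.6 beside 49.6, 50.6 and 56.9 on day 3 and 6.76, 7.92 and 7.34 beside 9.35, 16.3 and 13.5 on day 7, but 95.2% of its words also occur in other transcripts, above all in Ndufaf2, a complex I assembly factor on the opposite strand. Without lasered replicate 1 its day 3 difference went from -1.34 to -0.51. Ndufaf2 itself had group means of 20.5 in controls and 19.3 in lasered retinas on day 3. 1700116B05Rik, with 10.7, 5.42 and 10.5 in controls and 1.86, 2.86 and 5.42 in lasered libraries on day 3, was apart by a margin smaller than the digits given.

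Rncr4 (chromosome 6, 30172893 to 30175126, plus strand) is a retinal noncoding RNA known from photoreceptors, and it starts a few kilobases upstream of the miR-183, miR-96 and miR-182 cluster, which is read from the opposite strand. The 5′ arms of these sensory microRNAs are shown, from RefSeq, with the seed (bases 2 to 8) in capitals:

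miR-183-5p: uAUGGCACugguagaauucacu

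miR-96-5p: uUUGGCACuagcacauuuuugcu

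miR-182-5p: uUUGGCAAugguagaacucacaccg

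On day 7 Rncr4 had 167, 39.4 and 163 in lasered and 250, 203 and 183 in control libraries. On day 3 its level was low, with 0.457, 2.28 and 1.99 beside 3.73, 2.30 and 3.71, and the highest lasered value, 2.28, nearly touched the lowest control value, 2.30. The log2 difference was -0.79 (adjusted p = 0.222) on day 3 and -1.03 (adjusted p = 1) on day 7. Single libraries set its size: it was -0.42 without lasered replicate 1 of day 3 and -0.35 without lasered replicate 2 of day 7. The 10 rod markers summed to 47055 to 58057 in lasered and 59928 to 64792 in control libraries of day 7, with the lowest sum in the same library, replicate 2; their part in the Rncr4 values was not tested.

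The largest differences of day 3 without overlap were those of CT025671.4, Gm45619, Mir142hg, Gm11754, Gm4065 and Gm48236. CT025671.4, Mir142hg and Gm48236 averaged under 3 over the controls, so the membership rule favoured their being high in lasered libraries. Gm45619 (chromosome 7, 45368177 to 45368704) had 14.5, 6.54 and 4.73 in lasered and 0, 0.563 and 0.717 in control libraries, where it rested on 0 to 2 reads (log2 2.65, SE 0.39, adjusted p = 0.0853, and 2.24 with 0.0155 by limma without lasered replicate 1). It shares 299 exon bases with Lin7b, a scaffold protein gene on the opposite strand, which went from 3.06 to 32.2 in group means (log2 2.90, adjusted p = 0.071), and 52.6% of its words occur in other transcripts. Reads of that pair cannot be told apart.

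Mir142hg is the host of miR-142, a microRNA of blood-derived cells. It had 52.3, 2.79 and 5.72 in lasered and 1.14, 0.552 and 0.704 in control libraries on day 3, where the controls rested on 1 or 2 reads. Lasered replicate 1 held most of that signal, the difference was 2.64 (SE 0.88, adjusted p = 0.146) and 1.5 (adjusted p = 0.0606) without that replicate, and on day 7 the gene had at most 0.761 in any library and was not tested. The 8 markers of infiltrating myeloid cells summed to 2977, 206 and 319 in the same 3 lasered libraries (controls 40.4 to 46.9) and to 100 to 141 in the lasered libraries of day 7 (controls 15.3 to 29.9), and the 10 microglia markers to 254, 155 and 167 (controls 44.0 to 52.8). Their part in the Mir142hg values was not tested. Its mature microRNAs, from RefSeq with seeds in capitals, are:

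miR-142a-5p: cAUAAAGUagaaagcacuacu

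miR-142a-3p: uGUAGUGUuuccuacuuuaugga

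By position, 15 members held at least 1 mature microRNA of the RefSeq table on the same strand, 37 mature names with 34 seeds in all; hosts of miR-124 are known by name, but the table gave no sequence for it. Of the 15 hosts tested on day 3 and the 11 tested on day 7, 0 were called by limma. On day 3 their groups were apart upward in 3 of 15 (27.7% of all genes) and downward in 1 (3.82% of all genes). That 1 was Mir670hg, which holds miR-670 and a miR-129 precursor: it had 1.81, 14.1 and 14.8 in lasered and 22.8, 22.6 and 23.3 in control libraries (log2 -1.44, adjusted p = 0.222, and -0.62 with 0.0793 by limma without lasered replicate 1). The let-7 and miR-9 families give seeds that recur. 6720427I07Rik holds let-7a, let-7d and let-7f, with 1 seed for the 3 of them, and C130071C03Rik and Gm3764 both hold miR-9:

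let-7a-5p: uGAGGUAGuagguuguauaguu

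let-7d-5p: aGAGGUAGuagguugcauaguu

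let-7f-5p: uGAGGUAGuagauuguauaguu

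miR-9-5p: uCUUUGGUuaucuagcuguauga

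6720427I07Rik had 7.89, 9.98 and 12.5 in lasered and 10.3, 12.0 and 13.6 in control libraries on day 3, and its groups overlapped on both days. C130071C03Rik overlapped on both days too, while Gm3764 was apart on day 3 with 21.8, 8.72 and 9.85 beside 7.57, 7.43 and 7.95 (adjusted p = 0.272). These levels are of the long precursors in poly(A) RNA, and the mature microRNAs were not measured.

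On day 7, 257 members were tested, 1 rose (CT025671.4) and 0 fell at an adjusted p under 0.05, beside 0.237% and 0.00641% of all genes. At an unadjusted p under 0.05, limma gave 9 higher (3.5%, beside 3.14%) and 9 lower (3.5%, beside 0.795%). With the replicate number as a block, these counts were 18 higher (5.74% of all genes) and 20 lower (1.98% of all genes). The members' median difference was -0.02 and that of all genes 0.06, and 138 members (53.7%) were negative, beside 38.5%. For 438 other long noncoding genes past the same cut the median was -0.04, with 55.7% negative. The sign of the members' median turned with single libraries, and the median of all genes moved the same way. Leaving out lasered replicate 1 gave 0.06 (44.8% negative), beside 0.12 for all genes (35.3%). Leaving out control replicate 2 or lasered replicate 3 gave 0.03 and 0.02, beside 0.11 and 0.08. Leaving out lasered replicate 2 gave -0.11 (65.9% negative), beside -0.006 (51.1%). The members' median lay below that of all genes in each of these fits. The groups were apart downward in 15 members (5.84%, beside 2.11%) and upward in 12 (4.67%, beside 6.78%). Of these 12, 5 averaged under 3 over the controls and were members through lasered libraries. How many of the 15 were members through the controls was not counted. The libraries numbered 2 stood apart in both groups, with 4.21% mitochondrial signal in the lasered one (others 1.10% and 1.17%) and 2.54% in the control (others 1.49% and 2.02%); without them the median was -0.07 (all genes 0.04) and CT025671.4 was again the call.

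The largest differences of day 7 without overlap were those of CT025671.4, Gm48236, Gm12037, Rncr4, A930031H19Rik and Gm42428. A930031H19Rik had 17.5, 13 and 15.8 in lasered and 9.19, 6.39 and 9.17 in control libraries (log2 0.84, SE 0.22, adjusted p = 0.520), while its groups overlapped on day 3. Gm12037, with 1.71, 0.392 and 1.57 beside 2.06, 4.49 and 4.75, was lower (-1.10, adjusted p = 0.971) and rested on 6 to 13 reads in the controls. Gm42428 had 60.1, 17.5 and 63.9 beside 66.4, 68.7 and 86.1, a difference of -0.83 that was -0.24 without lasered replicate 2. All 287 bases of its near-copy Gm48275 on chromosome 10 also occur in Gm42428, so the counting could have split reads between the pair, and lasered replicate 2 was lowest in both.

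Over the 243 members tested on both days, 48 were higher on both, 86 lower on both and 109 in opposite directions. Across these members, which are not independent replicates, the differences of day 3 and day 7 had Pearson's r = 0.43 and Spearman's rho = 0.30, beside 0.41 and 0.21 across 12908 genes; the days share no libraries.

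**Figure D4:**
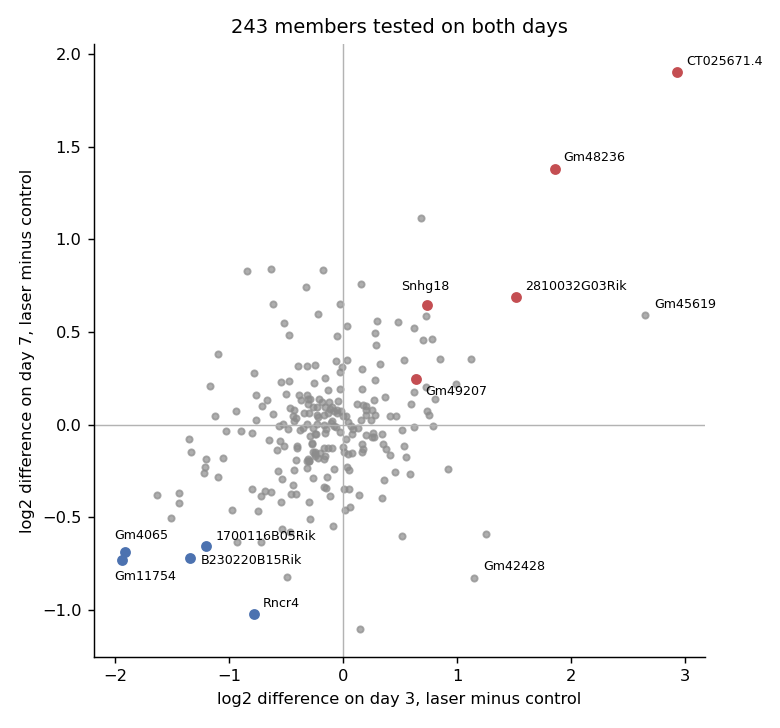
Log2 difference between lasered and control retinas on day 3 (horizontal axis) and day 7 (vertical axis) for 243 members; red and blue points are the members whose groups did not overlap in the same direction on both days. CT025671.4 (2.93 and 1.91) is farthest to the upper right, Gm11754 and Gm4065 are at the lower left, and Gm42428 (1.15 and -0.83) changes sign.

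Whether the laser difference itself differed between the days was tested as an interaction over 12 libraries in all 301 members. By limma 0 members passed the adjusted threshold, as did 0 of all 17611 genes, and 18 members (5.98%, beside 9.39% of all genes) had an unadjusted p under 0.05. The smallest p-values were those of Gm45619 (-2.06, adjusted p = 0.382), 5033430I15Rik (-0.86, adjusted p = 0.382), Snhg20 (-1.15, adjusted p = 0.382), Gm42428 (-1.98, adjusted p = 0.396) and Gm29442 (1.27, adjusted p = 0.396). 5033430I15Rik, which starts 245 bases from Atxn1, had 19.2, 19.7 and 16.0 beside 9.79, 13.7 and 12.1 on day 3 but 40.0, 34.3 and 44.8 beside 51.1, 45.2 and 47.1 on day 7. It was thus above the controls on day 3 and below them on day 7 in every library. Gm29442 went the other way, with 2.24, 4.70 and 5.85 beside 6.50, 6.05 and 7.69 on day 3 and 8.25, 9.39 and 7.64 beside 3.74, 5.91 and 5.51 on day 7. For CT025671.4 the interaction was -1.02 (SE 0.33, adjusted p = 0.402).

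Well-studied RNAs did not pass the test on either day. Among listed nuclear RNAs, Malat1, a component of nuclear speckles, had 111, 122 and 164 in lasered and 102, 122 and 164 in control libraries on day 3. On day 7 it had 11.2, 77.6 and 19.3 beside 10.6, 36.5 and 20.8, with the highest value of each group in the library numbered 2. Meg3, an imprinted RNA made from the maternal allele, had 18.2 to 35.5 in lasered and 14.2 to 28.3 in control libraries on day 3, and 14.0 to 30.9 beside 14.8 to 33.9 on day 7. Miat, a neural RNA, was below a mean of 1 on day 3 and had 6.85, 6.74 and 6.80 beside 5.98, 8.13 and 6.64 on day 7. The groups overlapped for Malat1, Meg3 and Miat on both days.

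2900097C17Rik, the mouse gene for Norad, a cytoplasmic RNA that binds Pumilio proteins, had 94.5 to 111 in lasered and 96.9 to 161 in control libraries on day 3 and 42.8, 126 and 70.0 beside 37.1, 142 and 58.7 on day 7. It overlapped between groups on both days, and the libraries numbered 2 were again the highest of day 7. Otx2os1, antisense to the photoreceptor regulator gene Otx2, overlapped on both days as well, with control means of 81.2 and 18.8 and lasered means of 80.3 and 21. Lhx1os, which starts 125 bases from Lhx1, had 9.78, 15.7 and 13.2 beside 10.2, 9.06 and 7.33 on day 7 and overlapped. Ftx, of the X inactivation centre, had 8.35 to 10.1 beside 7.82 to 11.1 on day 3.

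Among snoRNA hosts, 6 of 17 listed genes in the tables were members: Snhg6, Snhg10, Snhg12, Snhg18, Snhg20 and Epb41l4aos. Of the 17 tested on day 3, 0 rose or fell and 11 were positive (median 0.08, beside 0.16 for all genes), and of 14 tested on day 7, 0 rose or fell and 8 were positive (0.03, beside 0.06). Snhg20 had 31.0, 31.6 and 25.8 in lasered and 10.2, 19.2 and 17.5 in control libraries on day 3 (log2 0.92, SE 0.24, adjusted p = 0.106), and Snhg6 had 45.5, 38.1 and 41.3 beside 24.9, 24.6 and 32.7 (0.59, SE 0.16, adjusted p = 0.109). Both were apart on day 3 and overlapped on day 7, while Snhg10, Snhg12 and Epb41l4aos overlapped on both days. A separate list of coding genes held 11 paraspeckle proteins, all tested on each day. Of these 11, 0 rose or fell, with 10 positive on day 3 (median 0.39) and 9 on day 7 (0.07). Of 12 speckle and splicing factors 0 rose or fell, with 7 positive on day 3 and 6 on day 7. The lists of microRNA hosts (10 and 6 tested), imprinted RNAs (6 and 6), neural regulator-linked RNAs (11 and 8) and stress-linked RNAs (6 and 4) had 0 genes that rose or fell on day 3 and day 7.

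Each member was set beside its nearest coding gene in the tables. It lay within 10 kb in 178 members, and 62 members started head to head within 5 kb of a coding start. Over 226 pairs tested on day 3 the differences of member and neighbour had r = 0.35, and over 144 pairs within 10 kb r = 0.41; without pairs that share exon bases it was 0.25 over 116. On day 7 the values were 0.28 over 205 pairs, 0.39 over 137 and 0.25 over 109. In 116 of 226 pairs on day 3 and 118 of 205 on day 7 the sign was the same. The pairs share libraries and, in part, reads, so these values are descriptions.

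Levels in the control retinas differed between the days' tables, which were normalized separately and differ in depth, so this is a description of tables. The control mean was at least 3 on both days in 154 members, on day 3 only in 95, on day 7 only in 46 and on neither in 6. On log2(mean + 1) the gap exceeded 1 in 61.5% of members, 62 of them higher on day 7 and 123 lower, and in 67.8% of coding genes. The members' median gap was -0.64 and that of the coding genes 1.11. The largest gaps were those of Gm48275 (6.07), Gm26909 (-5.86), Gm42428 (5.75), Rncr4 (5.65) and Gm12319 (5.05). Rncr4 went from a control mean of 3.25 on day 3 to 212 on day 7, and Gm26909 from 91.8 to 0.597. The gap followed base composition: across 292 members its correlation with transcript GC was r = 0.49 (0.74 across 10381 coding genes), and its median was -2.22 in the 73 members of lowest GC and 0.19 in the 73 of highest GC. The laser differences within a day followed GC less, with r = 0.12 over 278 members on day 3 and -0.20 over 251 on day 7.

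**Figure D5:**
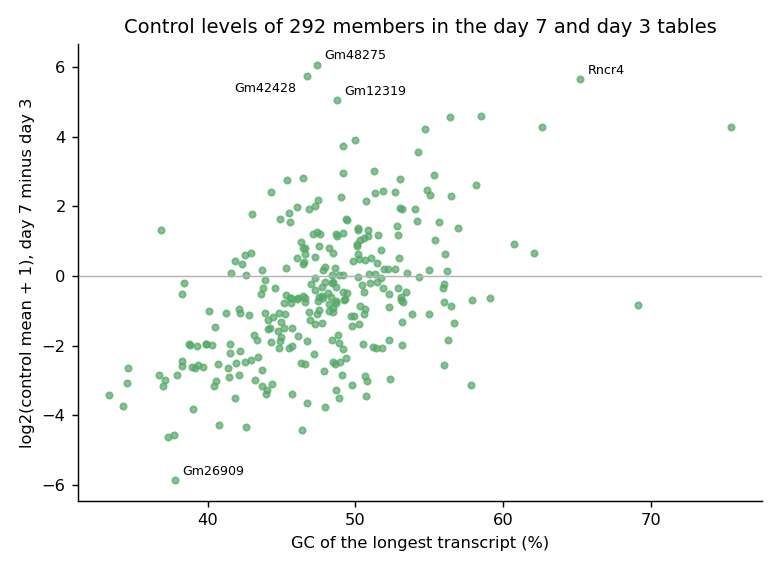
GC content of the longest transcript (percent, horizontal axis) and the gap between the control means of the day 7 and day 3 tables on log2(mean + 1) (vertical axis) for 292 members. Members of low GC lie mostly below 0 (median -2.22 in the 73 of lowest GC), and Gm48275, Gm42428, Rncr4, Gm12319 and Gm26909 have the largest gaps.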

How the data were processed

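The data are 12 poly(A) RNA libraries of mouse retina. The deposited signal per gene, in 1 table per day, is what the authors made and named TPM; column sums of 953049 to 1045986 show it is not TPM in the strict sense. Per the submitters' processing notes, the tools and build were STAR 2.7.0, edgeR 3.28.0 and mm10, with no roles stated. No source used here gives the counter or its strand setting. Multiplied by union exon length in GENCODE M21, values were whole multiples of a step per library for 99.75% to 99.84% of values under 20 reads (tolerance 0.05) once a factor with 6 values that cycles with table row was taken out; read counts in the text come from this, over 53681 genes. Intervals from reads would cover counting error only.

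Each day was fitted with limma 3.58.1 in R 4.3.3 (lmFit, eBayes with trend, two-sided) on log2(value + 1), pseudocount 1, for genes averaging 1 or more in that day's 6 libraries, Benjamini-Hochberg over all of them, threshold 0.05. The interaction used 12 libraries. On simulated day 7 data with 15283 genes, 32% of 100 genes changed by log2 1 and 79% of 100 changed by log2 2 were called, with 8 false calls. The changed genes were drawn above a floor in level, the noise was independent for each gene and library, and day 3 was not simulated. These rates therefore do not cover low members, shifts shared across a library or the day 3 test. On day 7, deviations from group means correlated between equally numbered libraries by 0.485, 0.559 and 0.128, but the labels do not say that equal numbers mark the same mouse. Unequal numbers gave -0.533 to 0.205, and lasered replicate 3 correlated more with control replicate 1 (0.205) than with control replicate 3. The pairing of replicate 3 is therefore not shown by these values. The main fit has no block, so its p-values leave out any pairing of the eyes. The blocked value stands beside the result where it changes a call. Tables were handled in pandas 2.3.3 and NumPy 2.4.6 under Python 3.11.15, and figures drawn with matplotlib 3.10.9.

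Members, lists and tests were chosen with earlier results of these data known. Named genes were members past the threshold, the 10 highest means, the 6 largest differences per day without overlap, the 5 smallest interaction p-values, members of the noncoding lists, the 3 genes on each side of the cut, and the 5 largest gaps between days. Other genes named were chosen after their values were seen. Searches for shared words and motifs were added likewise. Alternatives were another pseudocount, no filter, median-of-ratios rescaling, a replicate block, library weights, 1 joint fit, and leaving out each library. Coordinates are from the deposited tables (mm10, counted from 1). There were 0 columns without a sample.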

Additional observations from a re-analysis of the deposited data

How the results depend on the processing

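For 35 differences of single members, the alternative fits gave 568 values. Of these, 0 changed sign, 14 lost the adjusted threshold, all of them those of CT025671.4, and 20 gained it. The differences within a day were those of members whose groups did not overlap, so leaving out a library could not turn their sign. Those of the interaction, except for CT025671.4, were chosen for a small p-value. The lack of sign changes was thus largely set by this choice. On day 3 the members past the threshold were 1 as reported and 0 without the filter, 0 with the replicate block, 0 with the replicate block and GC trend removed, 4 with library weights and 8 in the joint fit of 12 libraries (6 up, 2 down), and between 0 and 5 when a library was left out. On day 7 they were 1 as reported and 0 with a pseudocount of 0.1, 0 without the filter, 2 with the replicate block, 2 with the replicate block and GC trend removed, 3 with library weights, and between 0 and 1 when a library was left out. The interaction gave 0 members as reported, 13 with library weights, and 0 in every fit that left out a library. The members' median on day 3 ran from -0.22 to -0.005 when a library was left out (-0.33 after median-of-ratios rescaling), and on day 7 from -0.11 to 0.06 (-0.09 after rescaling). On day 7 the median of all genes moved as well, from -0.006 to 0.12 when a library was left out. Undoing the cyclic factor kept 1 member on each day. The cause of these shifts was not tested. On day 3 deviations correlated between equal numbers by 0.041, 0.016 and 0.077, beside -0.058 to 0.014 between unequal numbers. Whether equal numbers there come from the same mouse is not known, and the block left 0 of 16786 genes called. The block changed no call on the interaction. At under 20 reads in every control, 46 members on day 3 and 57 on day 7 are limited by depth.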

Other observations

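Noncoding genes of other annotation classes are left out by the lincRNA rule, and the listed ones did not pass the threshold on either day. Gas5, a snoRNA host, had control and lasered means of 172 and 197 on day 3 and 28.3 and 31.3 on day 7. Vax2os, antisense to a retinal homeobox gene, had 82.3 and 59.6 on day 3 (log2 -0.55, adjusted p = 0.336) and 142 and 130 on day 7, and Tug1 had 49.7 and 32.2 on day 3 (-0.58, adjusted p = 0.192) by limma. Snhg15 went from 10.9 to 24.0 in group means on day 3 (0.99, adjusted p = 0.124) and had 23.7 and 24.7 on day 7.

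The members were also grouped by the sequence they share with other genes. The group with over 50% shared words lies inside the group with any. On day 3 the 155 tested members without a shared 50-base word had a median difference of -0.22, with 63.9% negative, and the 132 with any shared word had -0.10 with 60.6% negative. The 26 tested members with over 50% shared words had a median of 0.24 with 38.5% negative; 9 of them were apart upward (27.7% of all genes) and 4 downward (3.82% of all genes). On day 7 the order was another: the median was -0.125 with 69.6% negative in 23 members with over 50% shared words, 0.015 with 47.4% negative in 116 with any, and -0.04 with 58.9% negative in 141 with none. A polyadenylation hexamer (AATAAA or ATTAAA) stood in the last 60 bases of the longest transcript in 168 of 301 members (55.8%).

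The 20 members whose mean over the control libraries was under 3 had a positive difference in all but 1 of 19 tested on day 3, which the rule for members favours. The 281 members with a control mean of at least 3 had a median of -0.17 on day 3, with 66.4% negative, and of -0.03 on day 7, with 57.0% negative. A cut on the controls alone favours negative differences in turn, and all genes were not cut in this way. These shares are therefore not a cleaner measure than those of all members.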
